A study of Rattus norvegicus with 36 samples.

Results

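The liver response of rats to the 2 highest daily doses of hexachlorocyclopentadienyl-dibromocyclooctane (HCDBCO), a halogenated flame retardant, was compared directly: 6 samples at 541 mg/kg against 6 at 54.1 mg/kg, 12 of the 36 samples of the series. The samples were chosen by the dose in their labels, and no measured value entered the choice. All animals were male Sprague Dawley rats, 7 weeks old when dosing began, gavaged for 5 days with HCDBCO in corn oil at 5 ml per kg body weight, and livers were taken 1 day after the last dose. The 18 samples at 5.41, 0.54 and 0.05 mg/kg, 6 at each dose and handled the same way, served as the low end of the response, and the 6 samples given corn oil alone entered no test. The labels number the samples but not the animals, so p-values rest on sample-to-sample spread, which may be partly technical. The question was which responses kept growing over the last 10-fold increase in dose and which had levelled off.

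Expression was measured on 1-colour Affymetrix 3′ arrays, 1 array per sample, and is given as log2 RMA values of probe sets, so that a difference of 1 is a doubling of signal. A level is the value of a probe set in a sample, a step is the mean at 541 minus the mean at 54.1 mg/kg, and a response is the mean at a dose minus the mean of the 3 lowest doses. The albumin gene Alb lay at 14.69 to 14.74 at 54.1 and at 14.70 to 14.72 at 541 mg/kg, and Ttr, for the plasma carrier transthyretin, had medians of 14.27 and 14.25, so these defining hepatocyte transcripts were abundant in both groups. Of the 13 hepatocyte markers measured, 10 were lower at 541 than at 54.1 mg/kg, and their mean lay below all samples at 54.1 mg/kg in 3 of 6 samples at 541 mg/kg. Of the 12 arrays, 54.1 mg/kg replicate 5 stood apart, with a lower quartile of 3.79 and an upper quartile of 6.94 against 3.62 to 3.72 and 7.03 to 7.13 in the 35 others.

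Much of the response of the liver to foreign chemicals runs through the nuclear receptors CAR and PXR, which pair with RXR on promoters and enhancers and raise the transcription of cytochromes P450, carboxylesterases, conjugating enzymes and exporters. A parallel branch is run by NRF2, a transcription factor released from its inhibitor KEAP1 by electrophiles, which binds antioxidant response elements. Such induction can saturate once the receptor is fully occupied, and genes whose control regions respond weakly may need more ligand than genes that respond strongly.

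The promoters of 4 responding genes are shown because they carry letters of the motifs these factors are known to bind, and because 3 of the genes were still growing at the top step and the last had levelled. They are the 300 bases from 250 before to 50 after the annotated start in RefSeq (GRCr8), 5′ to 3′ on the strand of the gene: Ces2c at chr1:270376951-270377250 (+), Cyp3a23-3a1 at chr12:14398754-14399053 (-), Pir at chrX:33851000-33851299 (-) and Ugt2b1 at chr14:21378632-21378931 (+). Capitals mark matches, on either strand, to the nuclear receptor half-sites AGGTCA and AGTTCA and to the antioxidant response element core TGACNNNGC.
Ces2c: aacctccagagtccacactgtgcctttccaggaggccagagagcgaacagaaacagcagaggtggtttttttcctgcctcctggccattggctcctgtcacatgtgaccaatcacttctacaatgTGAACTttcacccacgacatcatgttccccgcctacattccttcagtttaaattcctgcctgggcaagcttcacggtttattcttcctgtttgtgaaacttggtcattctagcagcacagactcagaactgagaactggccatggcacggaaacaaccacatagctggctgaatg
Cyp3a23-3a1: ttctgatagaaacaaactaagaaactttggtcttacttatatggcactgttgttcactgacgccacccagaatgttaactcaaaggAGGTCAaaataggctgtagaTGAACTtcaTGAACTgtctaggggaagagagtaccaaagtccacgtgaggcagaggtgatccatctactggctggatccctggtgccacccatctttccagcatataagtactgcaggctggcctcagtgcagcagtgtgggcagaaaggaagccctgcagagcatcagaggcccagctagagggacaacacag
Pir: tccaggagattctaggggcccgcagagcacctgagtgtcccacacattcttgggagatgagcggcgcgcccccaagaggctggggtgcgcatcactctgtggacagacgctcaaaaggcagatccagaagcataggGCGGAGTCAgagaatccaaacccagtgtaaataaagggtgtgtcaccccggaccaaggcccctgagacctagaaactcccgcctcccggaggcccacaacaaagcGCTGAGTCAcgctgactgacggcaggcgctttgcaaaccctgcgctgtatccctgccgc
Ugt2b1: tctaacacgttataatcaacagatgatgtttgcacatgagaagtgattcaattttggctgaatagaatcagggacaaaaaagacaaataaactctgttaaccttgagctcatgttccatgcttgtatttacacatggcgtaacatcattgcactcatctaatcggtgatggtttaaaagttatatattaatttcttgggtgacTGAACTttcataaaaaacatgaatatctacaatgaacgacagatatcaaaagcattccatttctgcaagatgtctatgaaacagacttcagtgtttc

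Cyp3a23-3a1 held a direct repeat of AGTTCA with 3 bases between its copies (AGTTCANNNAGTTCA, which by its letters also counts as AGTTCA), found in 2 of 33469 promoters of this length (0.00598%), and an AGGTCA beside it. Ces2c and Ugt2b1 each held 1 AGTTCA, and Pir held 2 copies of TGACNNNGC. A promoter was matched for 52 of the 60 responding named genes defined below. Among these, AGGTCA was in 17.3% against 16.2% of all promoters, AGTTCA in 15.4% against 14.5%, and TGACNNNGC in 23.1% against 12.1%. AGGTCA read on the other strand begins with the same letters as TGACNNNGC, so the 2 motifs can overlap. Among the growing genes, 2 of 16 held AGGTCA, 3 held AGTTCA and 4 held TGACNNNGC, and among the levelled genes the counts were 2, 1 and 2 of 10. These matches describe letters in short windows and are not evidence of binding.

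Between the 2 doses no transcript passed the test of the step. The smallest p-value was that of Ces2c. This gene, a carboxylesterase that hydrolyses esters and amides, was 1.76-fold higher at 541 mg/kg, and a probe set annotated to several Cyp2b genes, P450s that are standard readouts of CAR, was 1.97-fold higher. Of 31042 probe sets, 0 passed an FDR of 5% (0%), and 1437 had an unadjusted p under 0.05 (4.63%), 710 higher (2.29%) and 727 lower (2.34%) at 541 mg/kg. The 2 groups did not overlap in 64 probe sets (0.206%), 27 higher (0.087%) and 37 lower (0.119%). The test was limma's moderated test over the 30 dosed samples, with Benjamini-Hochberg adjustment over all probe sets, and the median standard error of a step was 0.08. Limma called 1 probe set instead of 0 when vehicle samples were added to the fit (Ces2c, adjusted p = 0.0294), and also 1 when the fit held the 12 samples alone (that of several Cyp2b genes, adjusted p = 0.0246).

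Ces2c read 7.56 at the lowest, 8.01 at the median and 8.52 at the highest at 54.1 mg/kg, and 8.50, 8.70 and 9.35 at 541 mg/kg. At 541 mg/kg 5 of 6 samples lay above all samples at 54.1 mg/kg, and the lowest lay just inside the highest of them. Its step was 0.82 ± 0.14 (SE; 95% interval 0.53 to 1.11; unadjusted p = 2.2e-06, limma adjusted p = 0.0684). An exact two-sided permutation test of this gene alone over the 12 samples gave p = 0.00433, with 4 of 924 splits as extreme. The gene had the smallest p of all probe sets on these samples, so its permutation p adds no independent support.
The call of Ces2c turned on single samples: its limma adjusted p was 0.00619 with replicate 6 at 54.1 mg/kg left out and 0.0313 with replicate 2 at 541 mg/kg left out, and otherwise between 0.0574 and 0.433 when 1 sample was left out.

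The probe set of several Cyp2b genes read 11.98, 12.17 and 12.38 (lowest, median, highest) at 54.1 mg/kg and 12.52, 13.24 and 13.47 at 541 mg/kg. All 6 samples at 541 mg/kg lay above all 6 at 54.1 mg/kg, with replicate 2 well below the other 5. The step was 0.98 ± 0.20 (95% interval 0.57 to 1.39; limma adjusted p = 0.527), and the exact permutation p was 0.00216, the smallest that 6 against 6 samples can give. This probe set too was singled out with its values known.

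To separate responses that grew from those that levelled, responding probe sets were first picked by a contrast that the top step does not enter: the mean of 541 and 54.1 mg/kg against the mean of the 3 lowest doses, at an FDR of 5%. It called 73 probe sets (0.235% of those tested), of which 60 rose (0.193%) and 13 fell (0.0419%), in 60 named genes. A rise was then called growing where the 95% interval of its step lay wholly above 0, and levelled where that interval held 0 and its upper bound was under 0.667 times the mean response of both doses; falls were classed in mirror image. With the mean response held as estimated, a step at that bound makes the response at 541 mg/kg 2 times that at 54.1 mg/kg. Where the interval lay wholly against the response it was called receding. Everything else was open, with an interval that held 0 and reached past the bound. The intervals are not adjusted for the number of probe sets.

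By these rules 21 of the 73 responses were growing, 17 had levelled, 1 was receding and 34 were open. All 21 growing ones were rises, so that among 60 rises 21 grew, 14 had levelled, 1 receded and 24 were open, and among 13 falls none grew, 3 had levelled and 10 were open. Over all probe sets the same rules gave growing in 2.66%, levelled in 3.19%, receding in 1.97% and open in 92.2%. Most probe sets have no response to level off, so only the growing and receding shares can be set beside those of the members. Even these are a rough measure, because the pick and the interval share an estimate of spread. The pick may therefore favour probe sets with narrow intervals. The step pointed the way of the response in 58 of 73 (79.5%), against 51.7% of all probe sets. Groups did not overlap in 3 of the 73, against the 0.206% given above.

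The counts of growing and of levelled responses depended on single samples. For growing responses, leaving out a sample at 54.1 mg/kg made it 12 (replicate 2 or 4) or 10 (replicate 3). At 541 mg/kg it became 11 (replicate 1 or 3), 12 (replicate 4), 13 (replicate 6) or 39 (replicate 2). The count of levelled responses was 6, 7, 8 and 30 without replicates 2, 3, 4 and 5 at 54.1 mg/kg. Leaving out replicate 1, 2, 3, 4 or 6 at 541 mg/kg made it 8, 10, 7, 7 or 10. Measured from vehicle in place of the 3 lowest doses, 74 probe sets responded, of which 12 grew and 48 had levelled. Other fits left out a sample or used another scaling, filter, variance model or set of samples. In all of these, 13 of the 21 growing and 7 of the 17 levelled probe sets kept the class of their interval, whether or not they still responded. The response itself passed the FDR in all of these fits for 11 of the 21 and 6 of the 17.

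**Figure D1:**
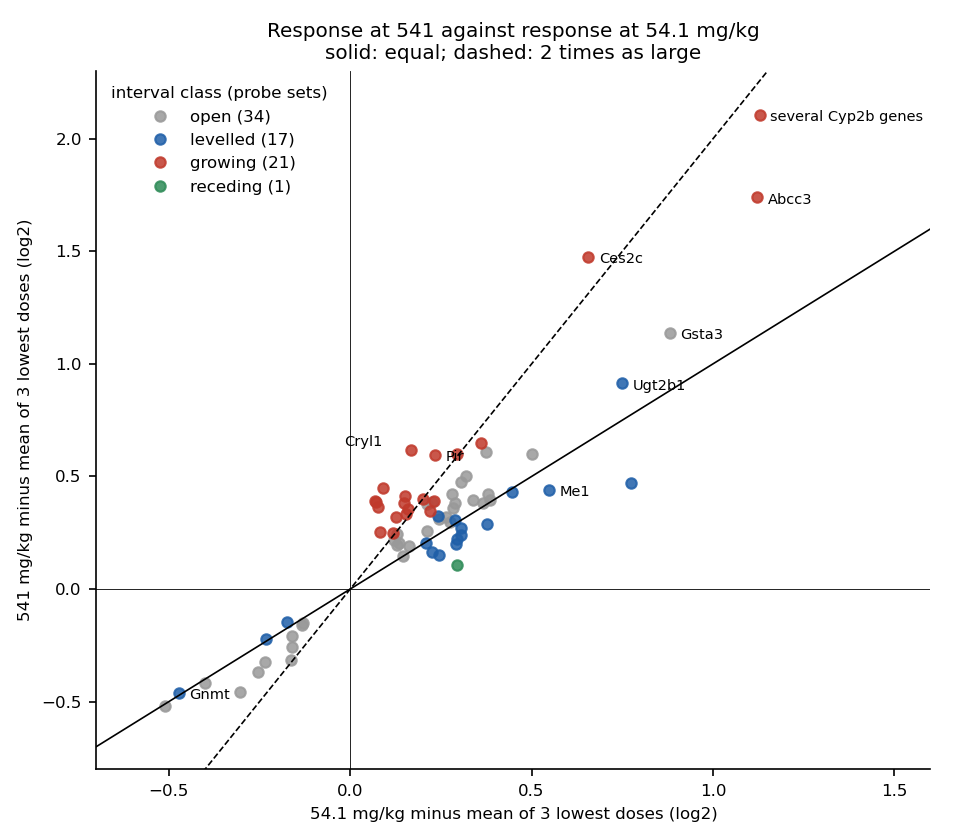
Response at 541 mg/kg (vertical axis) against response at 54.1 mg/kg (horizontal axis) for the 73 responding probe sets, each a mean of 6 samples minus the mean of the 18 samples of the 3 lowest doses, on the log2 scale. Colours give the classes; the solid line marks equal responses and the dashed line a response 2 times as large at 541 mg/kg. Ces2c lies above the dashed line at 0.66 and 1.47, whereas Me1 and Gnmt lie close to the solid line.

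Averaged over the 60 rising probe sets, each sample lay above the mean of the 3 lowest doses by 0.19 to 0.35 at 54.1 mg/kg (median 0.33) and by 0.31 to 0.53 at 541 mg/kg (median 0.46). That both doses lay above the low ones follows from how the 60 were picked. At 541 mg/kg 5 of 6 samples were above all samples at 54.1 mg/kg. Over the 39 rises not classed as growing, the means were 0.32 at 54.1 and 0.36 at 541 mg/kg. There 1 of 6 samples at 541 mg/kg was above all at 54.1 mg/kg, but leaving out the growing ones itself lowers the step. For the 13 falls the means were -0.26 ± 0.07 (SD, n = 6) at 54.1 and -0.31 ± 0.06 at 541 mg/kg, with overlap.

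The top step was smaller than the 10-fold step before it, from 5.41 to 54.1 mg/kg, in 55 of the 73 responses, with a median in the direction of the response of 0.10 against 0.21. The choice of the 73 favours a large preceding step, because it uses the samples at 5.41 mg/kg, and does not favour a large or a small top step. Tested directly with limma, the difference between the 2 steps passed the FDR for 0 of 31042 probe sets (0%), and 1221 had an unadjusted p under 0.05 (3.93%), 11 of the 73 among them.

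Ces2c was one of the growing responses. Another was Abcc3. This gene, an exporter of conjugated organic anions across the basolateral membrane, read 6.00, 6.46 and 6.79 (lowest, median, highest) at 54.1 mg/kg and 5.79, 7.06 and 8.04 at 541 mg/kg. The groups overlapped widely, since 4 samples at 541 mg/kg lay above all at 54.1 mg/kg and 1 lay below them. Its response went from 1.12 to 1.74, with a step of 0.62 ± 0.29 (95% interval 0.02 to 1.22), so the interval only just cleared 0. Abcc3 kept the growing class in 10 of 19 other fits.
Cyp3a23-3a1, a CYP3A monooxygenase and classical PXR target, read 12.89, 13.12 and 13.27 at 54.1 mg/kg and 13.19, 13.38 and 13.56 at 541 mg/kg. Again 5 of 6 samples at 541 mg/kg lay above all at 54.1 mg/kg. The response went from 0.36 to 0.65 (step 0.29 ± 0.11, 95% interval 0.06 to 0.52).

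Pir, a known NRF2 target encoding pirin, an iron-containing nuclear cofactor, read 7.09, 7.43 and 7.51 at 54.1 mg/kg and 7.39, 7.66 and 7.98 at 541 mg/kg. Here too 5 of 6 samples were above the whole lower group. The step was 0.36 ± 0.10 (95% interval 0.15 to 0.57), and 39.5% of the response at 541 mg/kg was present at 54.1 mg/kg.
Cryl1, a crystallin-related enzyme of the uronate cycle (L-gulonate 3-dehydrogenase), read 7.82, 8.21 and 8.35 against 8.35, 8.62 and 8.75, and the groups did not overlap. Only 27.1% of its response at 541 mg/kg was present at 54.1 mg/kg, and the step was 0.45 ± 0.12 (95% interval 0.21 to 0.69). Acad9, an assembly factor of respiratory complex I and acyl-CoA dehydrogenase, was the other named gene of this class without overlap, with 9.42, 9.62 and 9.65 against 9.66, 9.72 and 10.01 and a step of 0.19 ± 0.06.

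Zdhhc2, a palmitoyltransferase, was also growing and had a step of 0.31 ± 0.13, which was 0.19 in the lowest of the fits that left out 1 sample. Aox1, the molybdenum enzyme aldehyde oxidase, had one of 0.20 ± 0.09, Blvrb, the NADPH-dependent biliverdin reductase, one of 0.13 ± 0.06, and Cyp2b21 one of 0.18 ± 0.07 at a dim level of 3.29 to 3.47 (group means). Anxa7, an annexin (0.26 ± 0.10), Htatip2 (0.24 ± 0.08), Ldhd, the D-lactate dehydrogenase (0.29 ± 0.08), Dusp3, a dual-specificity phosphatase (0.17 ± 0.06), and Grm3 (0.13 ± 0.06, dim) made up the class with Mnd1, Vav2 and Trim37, described with the smallest p-values, 1 unnamed probe set (0.20 ± 0.08), and 1 of the 2 responding probe sets of App, the amyloid precursor protein. That probe set had a step of 0.16 ± 0.08 and the other, classed as open, 0.18 ± 0.11, so the split of App between classes is one of interval width and not of size. Of 19 other fits, the growing class held in 10 for the growing probe set of App and in 13 for Aox1. The response passed the FDR in 5 of the 19 for Mnd1, in 7 for Ldhd and Vav2, and in 9 for Aox1, Anxa7 and Dusp3. Class and response both held in all 19 for Ces2c, the probe set of several Cyp2b genes, Cyp3a23-3a1, Pir, Cryl1 and Acad9.

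**Figure D2:**
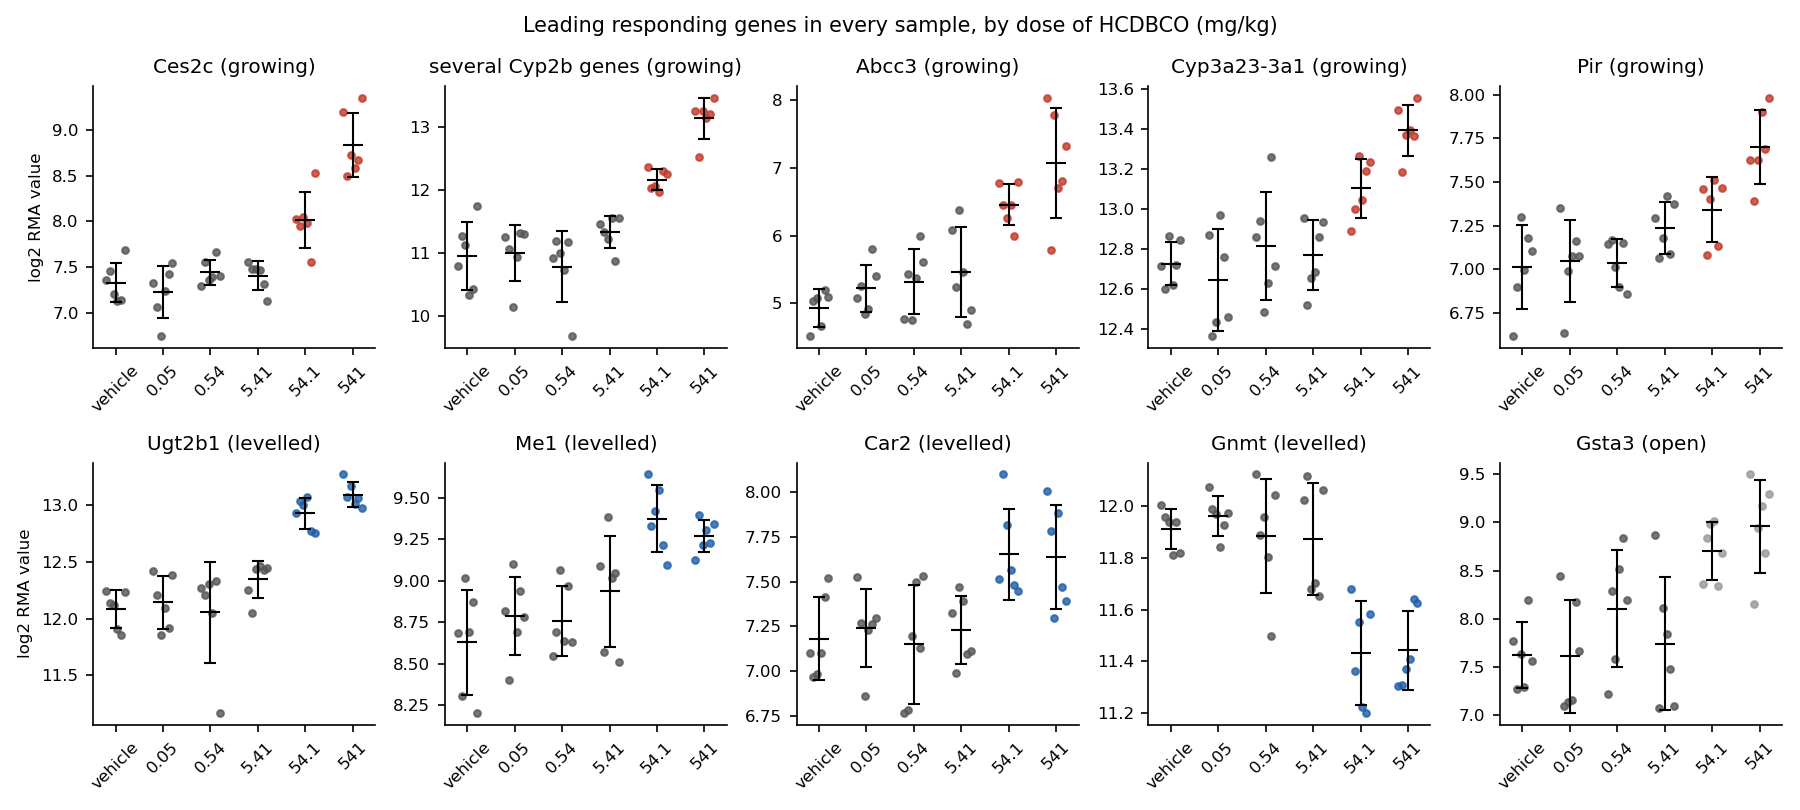
Log2 RMA values of 10 leading responding probe sets in all 36 samples by dose of HCDBCO in mg/kg, with points for samples and bars for the mean ± SD of 6. The samples at 54.1 and 541 mg/kg are coloured by class; the other groups, vehicle included, are grey and are shown for orientation. Ces2c has means of 8.02 and 8.84 at 54.1 and 541 mg/kg, and Me1 of 9.37 and 9.27.

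The 3 responding genes of glucuronosyltransferases, which conjugate glucuronic acid to their substrates, were classed as levelled. Of 19 other fits, Ugt2b1 kept this class in 19, Ugt2a1 in 15 and Ugt2b10 in 13. The response of Ugt2a1 passed the FDR in 10 of the 19, and those of Ugt2b1 and Ugt2b10 in 19. Ugt2b1 read 12.75, 12.97 and 13.07 at 54.1 mg/kg and 12.98, 13.07 and 13.27 at 541 mg/kg. The groups overlapped, with 3 of 6 samples at 541 mg/kg above all at 54.1 mg/kg. Its response went from 0.75 to 0.91, so 82.0% was present at 54.1 mg/kg, and the step was 0.16 ± 0.13 (95% interval -0.11 to 0.44). Ugt2b10 had responses of 0.29 and 0.31 (step 0.02, 95% interval -0.15 to 0.19) and Ugt2a1 of 0.30 and 0.27 (step -0.03, 95% interval -0.23 to 0.17). The intervals allow a further rise of up to those bounds, and none of the 3 steps was tested against that of a growing gene.

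Cyp2c6v1, a P450 of the CYP2C family, had the tightest values of the levelled responses. It read 13.76, 13.79 and 13.86 at 54.1 mg/kg and 13.85, 13.88 and 13.94 at 541 mg/kg. The higher dose had 4 of 6 samples above all at 54.1 mg/kg, and the step was 0.08 ± 0.05 (95% interval -0.02 to 0.18) on a response of 0.24 at 54.1 mg/kg. It kept the levelled class in 9 of 19 other fits. The array signal of growing responses spanned group means at 541 mg/kg of 3.28 (Grm3) to 13.4 (Cyp3a23-3a1) and that of levelled ones 5.42 (an unnamed probe set) to 13.9 (Cyp2c6v1). Both classes thus held bright probe sets.

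Me1, the cytosolic malic enzyme that supplies NADPH for fatty acid synthesis and is a target of NRF2 and of thyroid hormone, responded on both of its probe sets and had levelled on both. Its more responsive probe set read 9.10, 9.37 and 9.64 at 54.1 mg/kg and 9.12, 9.27 and 9.39 at 541 mg/kg. The upper group lay entirely within the lower one. The response was 0.55 at 54.1 and 0.44 at 541 mg/kg (step -0.11 ± 0.12, 95% interval -0.36 to 0.15), and on the other probe set 0.38 and 0.29 (step -0.09 ± 0.09).
Car2, a carbonic anhydrase, read 7.45, 7.54 and 8.10 and then 7.30, 7.63 and 8.01, with a step of -0.01 ± 0.14 (95% interval -0.30 to 0.27). The other probe set of Car2 had a mean response of 0.20 and was no responder. Plin3, a lipid droplet coat protein (step -0.07 ± 0.09), Sri, the calcium-binding protein sorcin (-0.06 ± 0.09), Kyat1, a kynurenine aminotransferase (-0.10 ± 0.06), and Magee1 (-0.09 ± 0.08) completed the named levelled rises. Each of these 4 had a somewhat larger mean response at 54.1 than at 541 mg/kg, by less than 2 standard errors.

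The 3 levelled falls were those of Gnmt, of Phyh and of 1 probe set of Glud1. Gnmt, glycine N-methyltransferase, which disposes of excess S-adenosylmethionine, read 11.20, 11.46 and 11.68 at 54.1 mg/kg and 11.30, 11.39 and 11.64 at 541 mg/kg. The ranges coincided, and the responses were -0.47 and -0.46 (step 0.01 ± 0.10, 95% interval -0.19 to 0.21). Phyh, the peroxisomal enzyme of phytanic acid oxidation, had responses of -0.23 and -0.22 (step 0.01 ± 0.07), and 1 of 2 responding probe sets of Glud1, mitochondrial glutamate dehydrogenase, had -0.17 and -0.15, with the other, classed as open, at -0.13 and -0.16. The other probe set of Phyh had a mean response of -0.13 and was no responder.

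The only receding response was Elmod3, named after its values were seen: 5.14 to 5.50 at 54.1 mg/kg against 4.97 to 5.26 at 541 mg/kg, with means of 5.30 and 5.11. The higher dose had 3 of 6 samples that lay below all at 54.1 mg/kg, and its response went from 0.29 to 0.11 (step -0.19 ± 0.07, 95% interval -0.33 to -0.05).

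**Figure D3:**
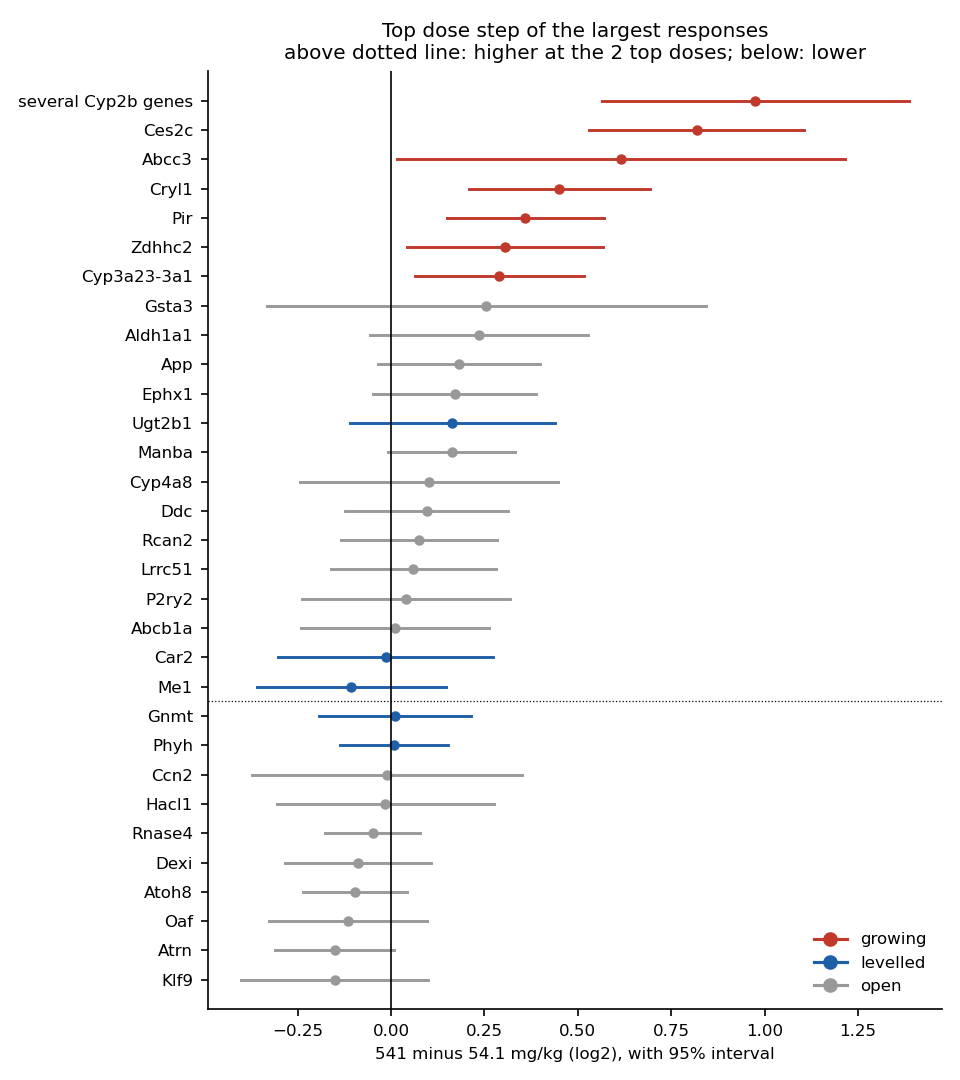
Step from 54.1 to 541 mg/kg (log2, horizontal axis) with its unadjusted 95% limma interval for the 20 genes with the largest rises, the probe set of several Cyp2b genes and the 10 genes with the largest falls, rises above the dotted line and falls below it. Red intervals lie wholly above 0 (growing), blue ones hold 0 and end short of the bound (levelled), and grey ones are open, the widest being that of Gsta3 at -0.33 to 0.84.

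Open responses included several well-known inducible genes whose intervals held 0 and reached past the bound. Gsta3, a glutathione transferase, read 8.35, 8.76 and 9.02 at 54.1 mg/kg and 8.16, 9.06 and 9.50 at 541 mg/kg. Its samples at 541 mg/kg reached both above and below the lower group, and the step was 0.26 ± 0.29 on a response of 0.88. Aldh1a1, a retinaldehyde dehydrogenase, had 5 samples at 541 mg/kg above all at 54.1 mg/kg and replicate 2 below all of them (12.04 to 12.20 at 54.1, 11.88 to 12.58 at 541 mg/kg). Its step was 0.24 ± 0.14, and 0.33 without that sample. Ephx1, the microsomal epoxide hydrolase, was at 0.17 ± 0.11. Abcb1a, the multidrug exporter P-glycoprotein, had steps of 0.01 ± 0.12 and 0.14 ± 0.11 on its 2 responding probe sets.

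Of the other open rises taken by the naming rule, the fatty acid hydroxylase Cyp4a8 had a step of 0.10 ± 0.17 and Ddc, aromatic amino acid decarboxylase, of 0.10 ± 0.11. Manba, lysosomal beta-mannosidase, was at 0.16 ± 0.08, P2ry2, a nucleotide receptor, at 0.04 ± 0.14, Rcan2, a calcineurin regulator, at 0.08 ± 0.10, and Lrrc51 at 0.06 ± 0.11. The open falls had steps between -0.15 and -0.01. Klf9, a Krüppel-like factor induced by glucocorticoid and thyroid hormone, went from a response of -0.30 to -0.46 (step -0.15 ± 0.12), and Atrn, attractin, from -0.16 to -0.32 (step -0.15 ± 0.08). The other probe set of Atrn had a step of -0.21 ± 0.07 but a mean response of -0.01, and was no responder. Ccn2, a matricellular growth factor, and Hacl1, a peroxisomal lyase, had near-equal responses at both doses, at -0.51 and -0.52 and at -0.40 and -0.42, with intervals that reached past the bound for levelled. Oaf (-0.12 ± 0.10), Atoh8 (-0.10 ± 0.07), Dexi (-0.09 ± 0.10) and Rnase4 (-0.05 ± 0.06) lay between. Other probe sets of Klf9 (mean responses -0.38 and -0.08), Ddc (0.07), Lrrc51 (0.17), Rcan2 (0.31) and Rnase4 (-0.10) were no responders.

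Not every gene with a small p in the top step was among the responders. Among the 10 named genes with the smallest p-values that were higher at 541 mg/kg, 5 were responders (Ces2c, Trim37, Vav2, Mnd1 and Cryl1) and 5 were not, and the limma adjusted p-values other than that of Ces2c were 0.532 to 0.703. Mmgt1, a subunit of the endoplasmic reticulum membrane insertase, read 8.40, 8.62 and 8.78 at 54.1 mg/kg and 8.87, 9.11 and 9.25 at 541 mg/kg, with no overlap. Its responses were 0.03 and 0.53 (step 0.50 ± 0.11), and its brighter probe set had a step of 0.42 ± 0.10.
Cers6, a ceramide synthase, read 7.06, 7.27 and 7.38 and then 7.29, 8.01 and 8.44 (step 0.68 ± 0.15). At 541 mg/kg 5 of 6 samples lay above all at 54.1 mg/kg, but the samples at 54.1 mg/kg stood below the 3 lowest doses, with a response of -0.23. Trim37, a ubiquitin ligase, had a step of 0.31 ± 0.07 on a response of 0.07 at 54.1 mg/kg (step of 0.09 on its other probe set). Vav2, a guanine nucleotide exchange factor, had one of 0.32 ± 0.08 (0.25 to 0.34 on its other 3 probe sets), and Mnd1, a meiotic recombination protein, one of 0.36 ± 0.09. The other probe sets of both Vav2 and Trim37 were no responders, with mean responses of 0.01, 0.10 and 0.15 for Vav2 and 0.17 for Trim37. Tekt4 (0.33 ± 0.07) and Scaf8 (0.27 ± 0.07, and -0.02 on its other probe set) were dim, at medians of 3.75 and 3.06 at 541 mg/kg.

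The 10 named genes with the smallest p-values that were lower at 541 mg/kg included Cpt1a. This gene, for the carnitine palmitoyltransferase that admits long-chain fatty acids to mitochondria, read 10.40, 10.45 and 10.91 at 54.1 mg/kg and 9.87, 10.01 and 10.39 at 541 mg/kg. The groups did not overlap. Its step was -0.50 ± 0.13 (95% interval -0.76 to -0.24; limma adjusted p = 0.703), and -0.40 ± 0.23 on its other probe set. Elovl2, an elongase of polyunsaturated fatty acids, read 9.55, 9.74 and 9.99 and then 9.07, 9.34 and 9.63, with 5 of 6 samples below the whole group at 54.1 mg/kg (step -0.38 ± 0.09). Fabp5, a fatty acid binding protein, was at -0.59 ± 0.16, with responses of 0.18 at 54.1 and -0.41 at 541 mg/kg.
The others were Krt79, a keratin (-0.47 ± 0.10), Akr1c15, an aldo-keto reductase (-0.40 ± 0.09), Klhl24, a ubiquitin ligase adaptor (-0.31 ± 0.08, no overlap), Dync2h1, a ciliary dynein heavy chain (-0.30 ± 0.07, no overlap), LOC100910949 (-0.33 ± 0.09), Nsmf (-0.23 ± 0.06) and C4bpb, a chain of the complement regulator C4b-binding protein (-0.17 ± 0.04, no overlap). None of these 10 was a responder, and their limma adjusted p-values were 0.532 to 0.703.

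**Figure D4:**
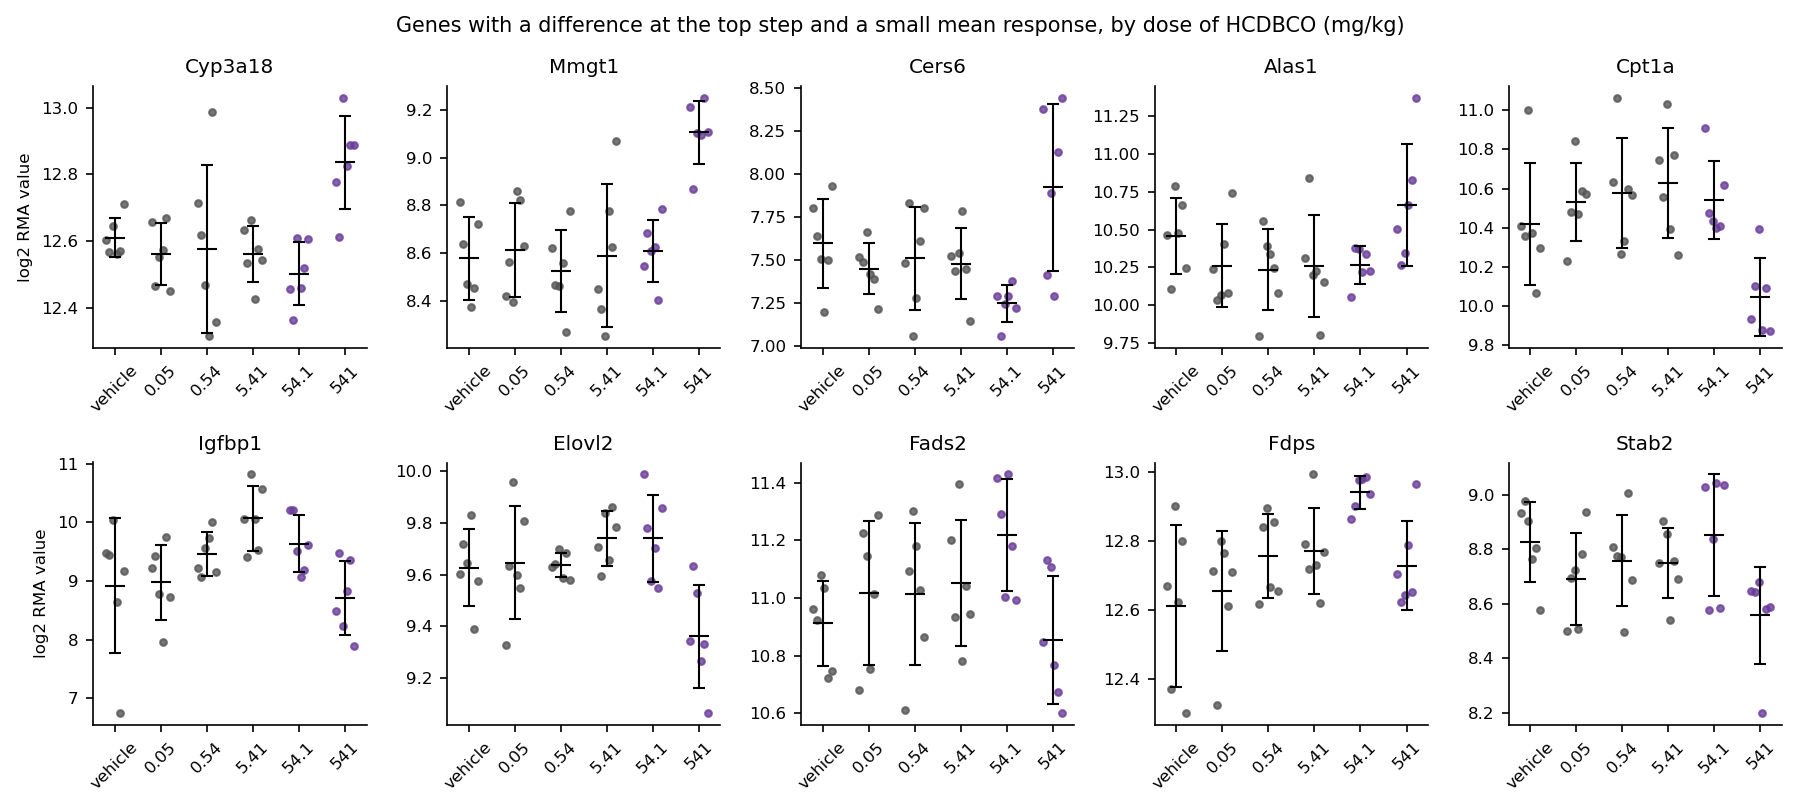
Log2 RMA values by dose in mg/kg for 10 genes whose interval of the step from 54.1 to 541 mg/kg (purple) did not hold 0, none of them a responder, with points for samples and bars for the mean ± SD of 6; the grey groups, vehicle included, are for orientation, and the panels were chosen after the values were seen. Mmgt1 has means of 8.61 and 9.11 at 54.1 and 541 mg/kg and Cpt1a of 10.54 and 10.04, whereas Igfbp1, at 9.63 and 8.71, stands at 8.92 in vehicle.

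The lists of pathway genes and cell type markers are described by counts and medians, beside all 14217 genes, of which 51% were higher and 49% lower at 541 than at 54.1 mg/kg, with intervals wholly above 0 in 2.37% and below 0 in 2.53% and a median step of 0.0018. No member of any list passed the FDR in the top step. Of 24 measured CAR and PXR target genes 21 were higher at 541 mg/kg, with a median step of 0.18, and 8 intervals lay above 0 and 0 below. The list mean per sample was 10.63 to 10.80 at 54.1 and 10.68 to 11.10 at 541 mg/kg, with 5 of 6 samples at 541 mg/kg above all others. With replicate 3 of either dose left out, 5 intervals lay above 0 in place of 8.

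The 9 members of this list that responded past the FDR were Ces2c, Abcc3, Cyp3a23-3a1, Ugt2b1, Cyp2c6v1, Gsta3, Aldh1a1, Ephx1 and Abcb1a, described above. The 5 other members with intervals above 0 were no responders. Cyp3a18 read 12.36, 12.49 and 12.61 and then 12.61, 12.86 and 13.03, without overlap (responses -0.06 and 0.27, step 0.33 ± 0.08). Slco1a4, an organic anion uptake transporter, read 11.94, 12.04 and 12.19 and then 12.05, 12.36 and 12.46 (responses -0.05 and 0.23, step 0.28 ± 0.08, and 0.27 ± 0.10 on its other probe set). In both genes at least 5 of 6 samples at 541 mg/kg lay above all at 54.1 mg/kg.
Alas1, the rate-limiting enzyme of heme synthesis that supplies the P450 prosthetic group, read 10.05, 10.28 and 10.38 and then 10.27, 10.58 and 11.37. The higher dose had 4 of 6 samples above the lower group, 1 of them by far, and the responses were 0.01 and 0.41 (step 0.40 ± 0.16). Akr7a3, an aldo-keto reductase protective against aflatoxin, went from 0.19 to 0.60 (step 0.41 ± 0.17) and Cyp3a2 from 0.05 to 0.15, a step of 0.09 ± 0.04 with no overlap between groups. The doses at which these genes and the responders moved were not compared by a test.

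The other members had intervals that held 0. Cyp3a9 was at 0.51 ± 0.36, with levels at 54.1 mg/kg from 6.91 to 9.10, Sult2a6, a bile acid sulfotransferase, at 0.31 ± 0.21, Por, the P450 reductase, at 0.20 ± 0.11, Abcc2, the canalicular exporter, at 0.13 ± 0.11 and Gstm1 at 0.11 ± 0.08. Cyp2c7 (0.03), Cyp2b3 (0.01) and Cyp2a2 (0.00) had steps close to 0, and Cyp2a1 (-0.17 ± 0.12) and Akr1b7 (-0.33 ± 0.21) were lower. Members of the CYP3A, CYP2B, UGT2B and GSTM families are close in sequence, and their probe sets may share signal.

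Glutathione genes leaned the same way, with 20 of 24 higher at 541 mg/kg, a median step of 0.09 and 7 intervals above 0. Transferases of the mu class led them: Gstm2 (0.33 ± 0.12), Gstm3 (0.32 ± 0.12) and Gstm7 (0.26 ± 0.11). Their responses were -0.07, 0.02 and -0.20 at 54.1 mg/kg and 0.26, 0.35 and 0.06 at 541 mg/kg. Gstm7 thus stood below the low doses at 54.1 mg/kg and near them at 541 mg/kg. Gclm, the modifier subunit of glutamate-cysteine ligase (0.21 ± 0.10), Gstt1 (0.18 ± 0.08, no overlap), Gstm4 (0.17 ± 0.08) and Mgst3 (0.16 ± 0.07) followed, whereas Gclc, the catalytic subunit, was at 0.02 ± 0.09. Among NRF2 target genes 19 of 27 were higher (median step 0.11, 5 intervals above 0): Abcc3, Akr7a3, Pir, Gclm and Aox1. Nqo1, the quinone reductase often used as the NRF2 readout, was at 0.09 ± 0.26, Hmox1, heme oxygenase, at -0.01 ± 0.13 and Txnrd1, thioredoxin reductase, at 0.12 ± 0.08. Abcc3, Akr7a3 and other genes stand on more than 1 of these lists, so the counts are not independent.

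Phase II conjugation genes outside glutathione were higher in 15 of 18, but with a median step of 0.04 and no interval clear of 0. Heme genes were higher in 11 of 15 (median step 0.02), with Alas1 and Blvrb the intervals above 0. Proteasome subunits were higher in 29 of 30, by small amounts between -0.01 and 0.13 with a median of 0.06, and Psma1 (0.13 ± 0.06) had the 1 interval above 0. The proteasome list mean per sample overlapped, at 9.94 to 10.10 at 54.1 and 9.97 to 10.29 at 541 mg/kg. There 3 of 6 samples at 541 mg/kg lay above all at 54.1 mg/kg. Cell cycle genes were higher in 21 of 24 (median step 0.07) without an interval clear of 0: Cdk1 was at 0.37 ± 0.29, Mki67 at 0.18 ± 0.26 and Ccnd1, cyclin D1, at -0.38 ± 0.19, and the list mean per sample spanned 5.55 to 6.04 at 54.1 and 5.50 to 6.20 at 541 mg/kg.

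**Figure D5:**
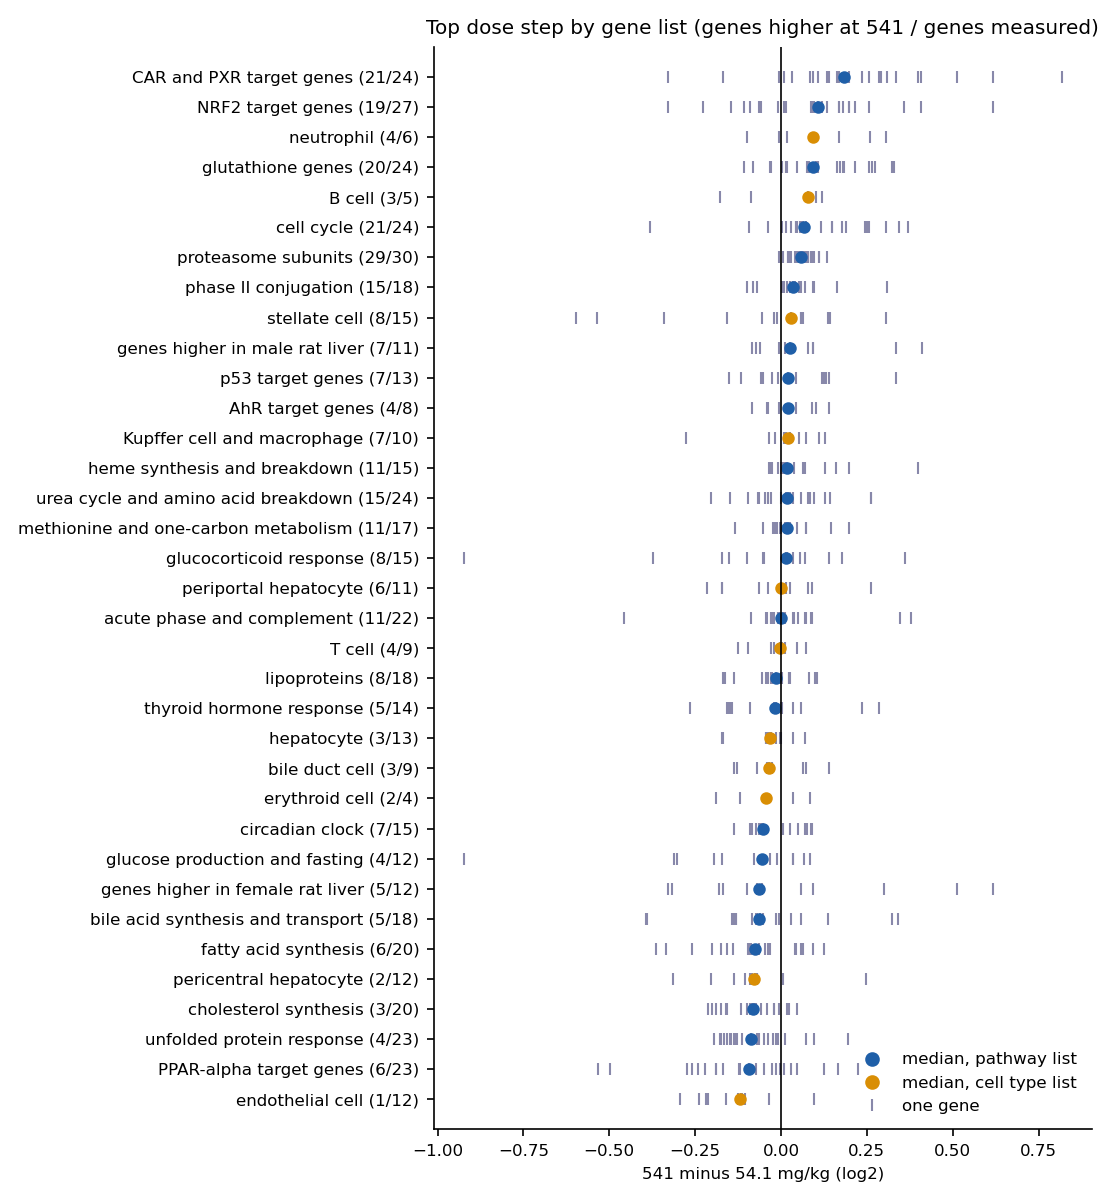
Step from 54.1 to 541 mg/kg (log2, horizontal axis) for the measured genes of 35 lists, 1 tick per gene and a dot for the list median, blue for 24 pathway lists and orange for 11 cell type marker lists, ordered by median. Brackets give genes higher at 541 mg/kg over genes measured. CAR and PXR target genes are at the top (21 of 24, median 0.18) and endothelial cell markers at the bottom (1 of 12, median -0.12).

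By counts of members, lists of lipid metabolism leaned lower at 541 mg/kg. Several members stood above the low doses at 54.1 mg/kg and back at or below them at 541 mg/kg. Of 20 fatty acid synthesis genes 6 were higher and 14 lower (median step -0.08, 3 intervals below 0). Fads2, the delta-6 desaturase, read 10.99, 11.24 and 11.43 and then 10.60, 10.81 and 11.13, with 4 of 6 samples below all at 54.1 mg/kg. Its responses were 0.19 and -0.17 (step -0.36 ± 0.12). Fads1, the delta-5 desaturase, went from 0.15 to -0.05 (step -0.20 ± 0.06) and Acly, ATP citrate lyase, from 0.34 to 0.08 (step -0.26 ± 0.10).
Of 20 cholesterol synthesis genes 3 were higher and 17 lower (median step -0.08, 3 intervals below 0). Here too the list means overlapped, at 10.17 to 10.50 at 54.1 and 10.08 to 10.54 at 541 mg/kg. Fdps, farnesyl diphosphate synthase, read 12.86, 12.96 and 12.98 and then 12.62, 12.68 and 12.96, so that 5 of 6 samples lay below the whole lower-dose group and 1 within it. Its responses were 0.21 and 0.00 (step -0.21 ± 0.07). Nsdhl went from 0.17 to -0.02 (step -0.19 ± 0.06, and -0.21 ± 0.06 on its other probe set) and Ebp from 0.13 to -0.07 (step -0.20 ± 0.08). The responses of these genes to both doses together did not pass the FDR.

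Of 23 PPAR-alpha target genes, which serve fatty acid oxidation, 6 were higher and 17 lower (median step -0.09). Besides Cpt1a, the lipid droplet protein gene Plin2 was lower (-0.19 ± 0.09) and Creg1 higher (0.22 ± 0.10), and Cyp4a1 was at -0.24 ± 0.16 and the hormone gene Fgf21 at -0.53 ± 0.61. In bile acid synthesis and transport 5 of 18 were higher (median step -0.07): Cyp8b1, the sterol 12-alpha-hydroxylase, read 10.67, 10.77 and 11.16 and then 10.22, 10.44 and 10.71, with 5 of 6 samples below all at 54.1 mg/kg (step -0.39 ± 0.11). Cyp7a1, the rate-limiting enzyme of the pathway, was at -0.14 ± 0.43.
Of 12 genes of glucose production and fasting 4 were higher (median step -0.06, 3 intervals below 0). Igfbp1, a fasting- and stress-induced binding protein of insulin-like growth factors, read 9.07, 9.57 and 10.21 and then 7.88, 8.67 and 9.47, with 4 of 6 samples below the whole lower-dose group (step -0.92 ± 0.29). Its mean in vehicle was 8.92 ± 1.15 (SD, n = 6), close to the 8.71 at 541 mg/kg. Slc2a2, the hepatocyte glucose transporter, was at -0.20 ± 0.07 and Ppargc1a, a coactivator of gluconeogenic genes, at -0.31 ± 0.14. The other, dimmer probe sets of Ppargc1a were at -0.005 ± 0.16 and -0.42 ± 0.15.

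Unfolded protein response genes were higher in 4 of 23 and lower in 19 (median step -0.09). The list mean per sample overlapped, at 9.48 to 9.59 at 54.1 and 9.39 to 9.61 at 541 mg/kg. Of 6 samples at 541 mg/kg, 3 lay below all at 54.1 mg/kg and 1 above. The chaperone genes with intervals below 0 were 4: Pdia4 (-0.17 ± 0.07, no overlap), Calr (-0.16 ± 0.07), Hsp90b1 (-0.14 ± 0.06) and Pdia6 (-0.11 ± 0.05). Ddit3, the stress-induced factor CHOP, had one above 0 (0.20 ± 0.10), with responses of -0.22 and -0.02.

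Among markers of cell types other than the hepatocyte, endothelial genes stood lowest. Of 12 measured 1 was higher and 11 lower at 541 mg/kg (median step -0.12, 5 intervals below 0). Stab2, a scavenger receptor of sinusoidal endothelium, read 8.58, 8.93 and 9.04 and then 8.20, 8.62 and 8.68 (step -0.29 ± 0.10). One of 6 samples at 541 mg/kg lay below all at 54.1 mg/kg. Fcgr2b (-0.24 ± 0.09), Kdr (-0.21 ± 0.08, and 0.08 on its dim other probe set), Tek (-0.16 ± 0.07) and Lyve1 (-0.12 ± 0.05) were the other 4, and Stab1 and Pecam1 were at -0.22 ± 0.11 and -0.11 ± 0.11. The list mean per sample was 7.60 to 7.92 at 54.1 and 7.56 to 7.70 at 541 mg/kg. In liver pieces, fewer cells of a type and less RNA per cell cannot be told apart, and the part of cell make-up in the steps of other genes was not tested.

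Hepatocyte markers were higher in 3 of 13 (median step -0.03; list mean per sample 12.82 to 12.92 at 54.1 and 12.71 to 12.87 at 541 mg/kg), with Apoa1, the core apolipoprotein of HDL particles, at -0.17 ± 0.06, and pericentral genes in 2 of 12 (median step -0.08). Stellate cell markers were split, 8 higher and 7 lower, with the contractile genes Tagln (-0.60 ± 0.25) and Acta2 (-0.34 ± 0.12) lower and Rgs5 (0.30 ± 0.13) higher. The 18 remaining lists had median steps between -0.06 and 0.09. Apoa1, Slco1a4, Igfbp1, Abcc3, Cyp3a18 and Cyp3a2, described above, also stand on these lists with intervals clear of 0. The other members with intervals clear of 0 there were Cdkn1a, the cell cycle inhibitor p21 (0.33 ± 0.12, and 0.10 on its dimmer probe set), Orm1, an acute phase protein (0.35 ± 0.12), Uroc1, urocanate hydratase (0.26 ± 0.08), Hsd17b13, a lipid droplet dehydrogenase (-0.22 ± 0.09), Dmgdh (0.20 ± 0.09), Pemt (-0.13 ± 0.06), Cxcr2 (0.26 ± 0.07, dim) and Cd79b (-0.18 ± 0.08). Of these other members, those higher at 541 mg/kg stood below the low doses at 54.1 mg/kg, with responses of -0.29 (Cdkn1a), -0.12 (Orm1), -0.13 (Uroc1), -0.08 (Dmgdh) and -0.12 (Cxcr2). Their responses at 541 mg/kg were 0.05, 0.23, 0.13, 0.12 and 0.14 in that order. The dioxin receptor targets Cyp1a1 and Cyp1a2 were at -0.04 ± 0.14 and -0.09 ± 0.05.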

How the data were processed

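Per the labels, total RNA of the left liver lobe, of integrity number 7 or above, was amplified, labelled with biotin and hybridised to 1 array per sample. The deposited values are log2 values that the authors made with RMA and the affy package, per the submitters' processing notes, which give no versions; raw intensities were not analysed here, so base 2 is taken from RMA's convention. RMA corrects background, normalises between arrays and summarises probes, and it compresses differences of dim probe sets. Of 31099 probe sets 57 controls were left out. Gene names came from the supplied platform annotation, set against RefSeq (GRCr8) for names: 20826 probe sets had 1 symbol, 436 several and 9780 none. Probe sets with several symbols gave no gene a name.

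Group means of the 5 dosed groups (30 samples) were fitted without covariates by limma 3.58.1 (lmFit, contrasts.fit, eBayes; R 4.3.3), with two-sided tests and Benjamini-Hochberg adjustment over 31042 probe sets. Every ± beside a step is the standard error. The procedure was tested on simulated data. A gene on a list was represented by its probe set with the highest mean over all samples; 492 of 575 listed genes, in 35 lists, were measured. The naming rule took the 10 smallest p-values each way in the top step, the 20 largest rises and 10 largest falls among responders, all CAR and PXR members, up to 3 members of each other list and a few fixed genes; remaining members of the classes and list members with intervals clear of 0 were named after their values were seen. Genes, lists and rules were chosen with earlier results of these data known. The precision is limited by the number of arrays. Alternatives were other sample sets, scalings, filters and variance models, and leaving out each of the 12 samples.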

Additional observations from a re-analysis of the deposited data

Results flagged for a closer look

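In 7 of 116 groups of 6 samples, 2 for each of the 58 named or leading probe sets examined, 1 sample lay apart from the other 5 by more than Dixon's 95% critical value, which chance alone does in about 1 group in 20. At 541 mg/kg, replicate 2 was low in 3 responding probe sets: 12.52 in that of several Cyp2b genes (others 13.15 to 13.47), 11.88 in Aldh1a1 (others 12.32 to 12.58) and 9.61 in Atrn (others 9.77 to 9.86). Replicate 5 at 541 mg/kg was low in C4bpb, at 11.92 (others 12 to 12.04), and in Zdhhc2, at 6.62 (others 6.92 to 7.04). At 54.1 mg/kg, Zdhhc2 was low in replicate 6, at 6.01 (others 6.62 to 6.82), and Manba in replicate 5, at 8.23 (others 8.56 to 8.71); replicate 5 is the array whose distribution stood apart.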

How the results depend on the processing

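No step passed the FDR in the main fit, so no alternative could reverse a call, and a step that stayed on its side is one that again did not pass. Of 58 single-gene steps under 1154 alternative values, 1149 stayed on their side of the threshold and 5 newly passed, those of Ces2c and of the several-gene Cyp2b probe set; 47 steps kept their sign throughout, as did 22 of 35 list medians. The count of probe sets past the FDR in the top step was 1 in place of 0 with all 36 samples, with only the 12 samples and with quantile normalisation anew, and 0 to 1 when 1 sample was left out. Responding probe sets numbered 127 with array quality weights, in place of 73 (classes 32 growing, 33 levelled, 3 receding, 59 open), and 28 to 87 when 1 sample was left out: 42, 28 and 36 without 54.1 mg/kg replicates 2, 3 and 4, and 33, 43 and 36 without 541 mg/kg replicates 1, 3 and 4. Leaving out 1 sample gave 10 to 39 growing, 6 to 30 levelled, 0 to 4 receding and 11 to 40 open; the 30 levelled were without 54.1 mg/kg replicate 5. It gave 5 to 11 CAR and PXR intervals above 0 and 20 to 22 members higher. The filter on dim probe sets gave 2 receding and 56 open, and an intensity trend with robust variance and the fit of all 36 samples gave 2 receding each. Measured from vehicle, 74 probe sets responded, 31 of them among the 73, and of the 74, 12 grew, 48 had levelled, 4 receded and 10 were open. With the bound at the whole mean response, where the response at 541 is 3 times that at 54.1 mg/kg, 38 had levelled and 13 were open. With the replicate block the top step had 0 calls and 61 probe sets responded, 16 growing and 18 levelled; same-numbered samples of the 2 doses had correlations of their deviations between -0.14 and 0.11, and 1 of 6 samples correlated best with its own number, so the numbers were not taken to pair the samples. The cause of these shifts was not tested.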

Other observations

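Retsat, a retinol saturase of the liver and chosen after its values were seen, had the most uneven pair of steps in size among the 10 probe sets with the smallest p for a difference between the top and the preceding step: its mean was 11.74 at 5.41, 10.66 at 54.1 and 11.70 at 541 mg/kg, a difference between steps of 2.11 ± 0.49 (limma adjusted p = 0.999). It did not pass any test, and its low group was that at 54.1 mg/kg.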
